A study of Oryctolagus cuniculus with 12 samples.

Results

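The genes described here encode the proteins of the cytosolic ribosome, measured here by sequencing bulk RNA from rabbit ear tissue of full thickness. Members were chosen by name and by their mean level over all samples: a row of the gene table counted when it was protein coding, had a mean FPKM (fragments per kilobase of gene length, scaled for sequencing depth) of at least 1 over the 12 samples, and was named as a 40S, 60S or 60S acidic ribosomal protein by its symbol or its protein description. Of 29587 genes in the table, 473 rows were named in this way, 399 of them were protein coding, and 242 of those reached the mean FPKM of 1. For each protein the row of highest mean FPKM was kept, which left 80 members, 32 of the small subunit and 48 of the large subunit. The other 162 rows are further copies of the same proteins and are called copies below. Only 20 of the 80 kept rows carried a symbol, and the row kept for RPL8 by its protein description carried the symbol ZNF34, so most members are named from the protein description and are written here by the human protein symbol.

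The samples formed 4 groups of 3, and each group held 3 wild-type female rabbits: normal skin (NS) without treatment, hypertrophic scar (HS) without treatment, HS treated with drug-loaded MNs (microneedles, MN in short, 1 patch per lesion), and HS treated by 5-Fu injection (5-fluorouracil, a fluoropyrimidine antimetabolite, 120 μg in 0.1 mL per lesion). Treatments were given on days 22, 29 and 36 after skin resection and the tissue was taken a week after the last one. All 3 scar groups share the resection wound, which NS lacked, so wounding and scar cannot be told apart in any comparison with NS. The libraries held 10521472 to 14043667 reads on genes, so that a single read on 1 kilobase of gene gave an FPKM of 0.0768 to 0.0972.

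Each ribosome carries 1 copy of nearly every ribosomal protein, and cells keep the mRNAs of these proteins at similar and very high levels. These mRNAs begin with a terminal oligopyrimidine (TOP) tract, through which growth signals acting on mTOR and LARP1 set how well they are translated and how long they last. Because they are short and abundant, ribosomal protein mRNAs have been copied back into mammalian genomes many times, and most such copies lack introns.

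The members were among the most abundant genes of the tissue. The median of their mean FPKM was 1143, with 1264 for the small subunit and 1045 for the large subunit, and 43 of the 80 members exceeded 1000. Among all genes ranked by mean FPKM, 25 members were in the top 50 and 71 in the top 300. Since the rule chose members by mean level, these levels are given as a description. Reads on the members made up 4.82% to 5.17% of all reads on genes in HS, 6.64% to 7.61% in NS, 5.71% to 9.03% after drug-loaded MNs and 6.66% to 11.2% after 5-Fu injection.

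RPLP1, a protein of the stalk that recruits translation factors, had the highest mean FPKM of all members, 6548. Its FPKM was 5549, 5421 and 6656 in NS, 5429, 5875 and 5450 in HS, 5749, 5946 and 8053 after drug-loaded MNs and 10271, 6584 and 7594 after 5-Fu injection. All 3 5-Fu samples lay above all 3 HS samples, with replicate 1 far above the rest. RPS15, a protein of the small subunit head, came next with a mean FPKM of 3567. It was at 2777, 2818 and 3123 FPKM in NS, 2981, 2715 and 2756 in HS, 2791, 3230 and 5178 after drug-loaded MNs and 6116, 4162 and 4151 after 5-Fu injection. RPL35, a protein near the exit of the peptide tunnel, had a mean of 3565, and its FPKM was 2915, 2629 and 3799 in NS, 2662, 2682 and 2764 in HS, 2857, 3294 and 4823 after drug-loaded MNs and 6306, 3644 and 4400 after 5-Fu injection. The differences between RPS15, RPL35 and RPS19, whose mean was 3548, were smaller than their spread between samples. In all 3 leading genes the same libraries were highest, 5-Fu replicate 1 first and drug-loaded MNs replicate 3 next.

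At the lower edge of the rule, RPL3L (mean FPKM 1.37) was just inside and RPL7L1 was at 43.3. RPL10L (0.798) was just outside, and the next below it was RPLP2 at 0.0749. Of 79 proteins in a hand-written list of the standard set, 75 were members. RPS9, RPL11, RPL41 and RPLP2 were not. The other 5 members are paralogs, namely RPL22L1, RPL26L1, RPL3L, RPL7L1 and RPS27L.

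Member rows were spread over 21 chromosomes, which held 60 of them, with 20 on unplaced scaffolds. RPS4X and RPL36A were listed on the X chromosome. By the listed positions, 64 members spanned more genome than their length, as genes with introns do, and 16 were listed as a single block with no intron. For 8 of those 16, among them RPL22L1, RPL28, RPL32, RPL34, RPL38, RPL39 and RPS27, another row of the same protein with gaps was also expressed. Of the 162 copies, 88 were listed as a single block. How reads that fit more than 1 copy were counted is not given in the sources used here, so the level of any member with near-identical copies is uncertain, and the sum over copies is given below where it matters. Of the 80 proteins, 21 had a single row and 59 had more than 1, with up to 9. The member row held over 90% of the FPKM summed over its protein's rows for 49 members, and under 60% for 5, among them RPL22L1, RPL17, RPS6 and RPL29.

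The 80 members moved together from sample to sample. Each member was expressed as log2(FPKM + 1) minus its own mean over the 12 samples, and the median over the members was taken in each sample. This median was -0.19, -0.26 and 0.06 in NS, -0.28, -0.31 and -0.22 in HS, -0.26, -0.04 and 0.46 after drug-loaded MNs, and 0.79, 0.06 and 0.28 after 5-Fu injection. The HS samples were the tightest group (SD 0.045, n = 3), and the treated groups were the widest, with an SD of 0.37 in each. Drug-loaded MNs replicate 3 and 5-Fu replicate 1 stood well above the other samples of their groups. In these libraries 76 and 74 of the 80 members were above their own mean, against 3 to 8 in the HS samples, 10, 11 and 53 in NS, 7 and 28 in MN replicates 1 and 2, and 56 and 68 in 5-Fu replicates 2 and 3. Once the family median of the sample was subtracted, the remaining SD over the 12 samples had a median of 0.12 over the members, and it was over 0.3 for 14 of them.

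**Figure D1:**
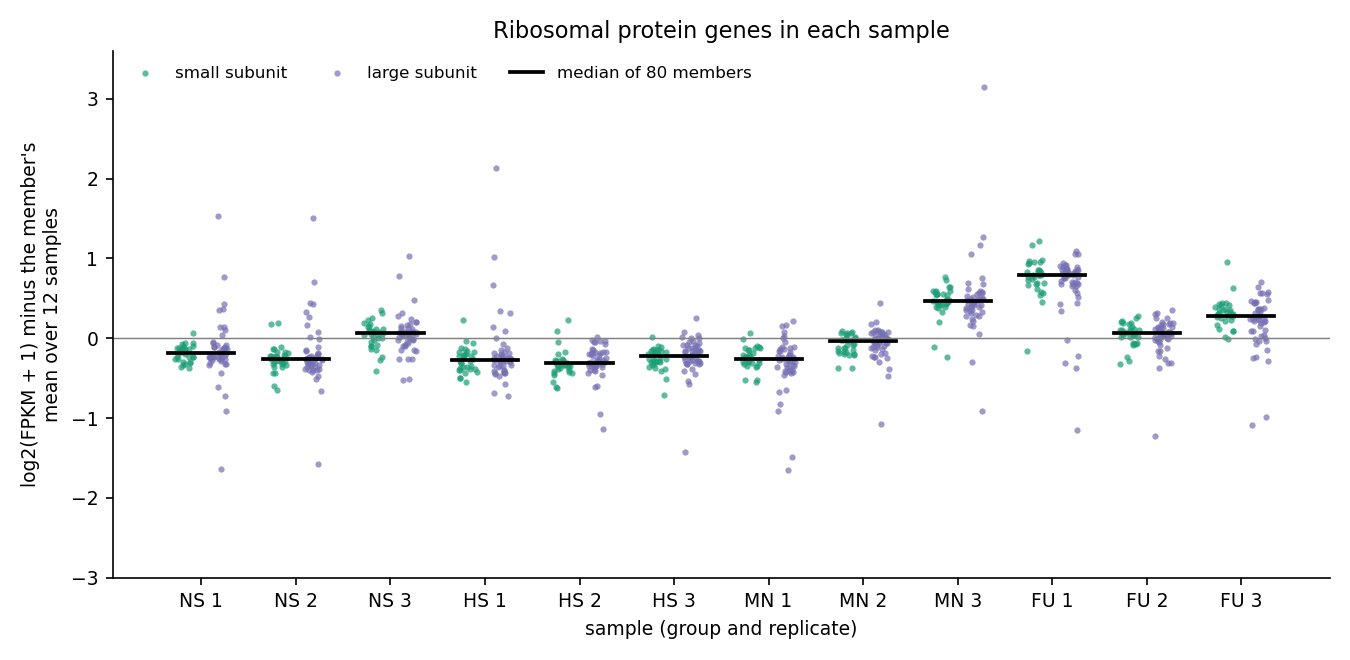
Level of each ribosomal protein gene in each sample, as log2(FPKM + 1) minus the gene's mean over the 12 samples, with 1 point per member (green for 32 small subunit, purple for 48 large subunit members) and a black bar at the median of the 80. The medians run from -0.31 in HS replicate 2 to 0.79 in 5-Fu replicate 1, and the few points far from the bars include RPL34, RPL27 and RPL39.

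Small and large subunit members followed one another closely. The median of the large subunit minus that of the small subunit was between -0.06 and 0.07 log2 units in each of the 12 samples. It was 0.02, 0.04 and 0.07 in HS and -0.01, -0.02 and -0.06 after 5-Fu injection, with no overlap between these groups. The summed FPKM of the large subunit divided by that of the small subunit was 1.40 to 1.42 in HS, 1.35 to 1.36 in NS, 1.37 to 1.41 after drug-loaded MNs and 1.31 to 1.36 after 5-Fu injection. These differences between the subunits were not tested.

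The comparison of 5-Fu injection with untreated HS gave the widest difference. No injection without drug was among the samples, so the injection and its drug cannot be told apart. The member median of the log2 fold change on the log2(FPKM + 1) scale was 0.64 (interquartile range 0.52 to 0.73), which corresponds to 1.55-fold, against a median of 0.02 over the 13287 genes tested. The fold change was positive for 77 of 80 members, all 32 of the small subunit and 45 of the large subunit. In 61 members the 3 5-Fu samples did not overlap the 3 HS samples and were higher, where 13.9% of all genes tested did so. An unadjusted limma p under 0.05 with a higher level was found for 51 members, 26 of 32 in the small and 25 of 48 in the large subunit, where 11.6% of all genes had one. After Benjamini-Hochberg adjustment over all genes, limma called 2 members higher and 0 lower, where 1.23% of all genes were called higher and 3.17% lower. The median standard error of a member's log2 fold change was 0.26, and the median adjusted p over the members was 0.147.

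The 2 members that rose were FAU and RPL36. FAU encodes a ubiquitin-like protein fused to the small subunit protein eS30. Its FPKM was 45.9, 36.7 and 43.5 in HS (42.0 ± 4.76, SD, n = 3) and 112, 65.9 and 77.3 after 5-Fu injection (85.0 ± 23.9), and it was 45.3, 47.0 and 59.3 in NS and 52.6, 52.4 and 80.1 after drug-loaded MNs. Every 5-Fu sample was above every HS and every NS sample, and the log2 fold change against HS was 0.97 ± 0.22 (SE, limma adjusted p = 0.0387). This row, at chr2:104510625-104511140, had a mean of 59.8 FPKM, while a row on the scaffold GL018942 described as the ubiquitin-like protein of the same fusion had a mean of 334 and a log2 fold change of 0.41 ± 0.27 (limma adjusted p = 0.363). The call for FAU thus refers to the lesser of 2 rows that share this protein's name in part.

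RPL36, a protein of the large subunit, was at 690, 642 and 705 FPKM in HS (679 ± 32.8, n = 3) and at 1631, 969 and 1370 after 5-Fu injection (1324 ± 334). In NS it was at 736, 714 and 796, and after drug-loaded MNs at 761, 811 and 1241. The lowest 5-Fu sample was above all HS and NS samples, and the log2 fold change was 0.93 ± 0.23 (limma adjusted p = 0.0487). RPS24, a small subunit protein, came next by adjusted p, with a log2 fold change of 0.79 ± 0.21 (limma adjusted p = 0.0544).

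Both calls were lost in some fits that kept the samples of both groups whole. limma called 0 members when only the groups compared were fitted (smallest adjusted p 0.106) and with no filter on low values (0.0645). With the FPKM of each protein's copies summed, FAU was called (limma adjusted p = 0.0417) and RPL36 was not. The RPL36 member row held 80.7% to 99.6% of the FPKM of its protein's rows, depending on the sample. The number of members called depended on single libraries as well. It was 18 without 5-Fu replicate 2, and 0 without 5-Fu replicate 1, without 5-Fu replicate 3, without any 1 of the HS replicates, without drug-loaded MNs replicate 2 or without NS replicate 1. It was 1 without NS replicate 2 or 3, and 3 without drug-loaded MNs replicate 3. The member median stayed positive in all these fits, at 0.45 without 5-Fu replicate 1 and 0.80 without 5-Fu replicate 2. When all samples were forced to one distribution of values by quantile normalization, the member median fell to 0.22 and 73 members stayed positive.

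**Figure D2:**
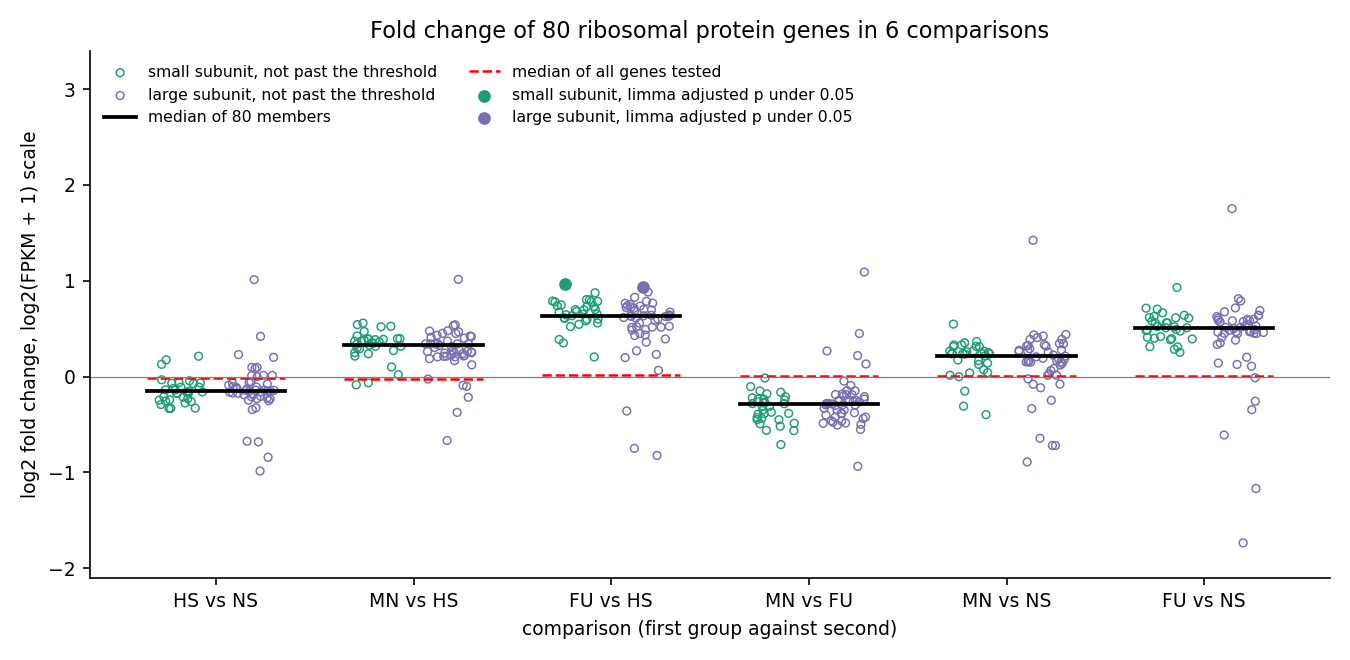
Log2 fold change of each of the 80 members in the 6 comparisons, on the log2(FPKM + 1) scale, with open points for members not past the threshold and filled points for limma adjusted p under 0.05. Black bars mark the member medians, from -0.29 (drug-loaded MNs against 5-Fu injection, MN vs FU) to 0.64 (5-Fu injection against HS, FU vs HS), and red dashes mark the medians of all genes tested, all within 0.03 of 0.

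RPL27, RPL34 and RPL7L1 were the 3 members with a negative fold change between 5-Fu injection and HS. RPL27, a large subunit protein, was at 1007, 617 and 632 FPKM in HS and at 283, 785 and 318 after 5-Fu injection, a log2 fold change of -0.82 ± 0.60 (limma adjusted p = 0.411). RPL34 was at 1391, 144 and 117 in HS and at 246, 135 and 149 after 5-Fu injection, with a log2 fold change of -0.75 ± 1.21 (limma adjusted p = 0.728). In both genes the groups overlapped, and with the FPKM of each protein's copies summed the log2 fold changes were 0.02 for RPL27 and 0.09 for RPL34. Copies differ in length, so a summed FPKM still depends on which row held the reads. In reads on all rows of the protein, divided by the sample's size factor, the log2 difference between 5-Fu injection and HS was 0.88 for RPL34, in the direction of the family, and -0.03 for RPL27. RPL7L1, a nucleolar relative of RPL7, was the 1 member whose 5-Fu samples were all below the HS samples, where 16.4% of all genes were. Its FPKM was 54.6, 41.4 and 44.2 in HS and 36.5, 35.4 and 36.0 after 5-Fu injection. The log2 fold change was -0.36 ± 0.17 (limma adjusted p = 0.208). RPL7L1 was at 47.1, 53.9 and 38.2 in NS and 39.7, 38.7 and 53.4 after drug-loaded MNs.

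The proteins were also taken by role. The 5S ribonucleoprotein contains RPL5 and RPL11, which can bind MDM2 when ribosome assembly is disturbed. RPL5 was at 498, 500 and 632 FPKM in NS, 473, 484 and 541 in HS, 512, 577 and 907 after drug-loaded MNs and 1057, 593 and 715 after 5-Fu injection. All 5-Fu samples were above all HS samples, and the log2 fold change of 0.62 ± 0.26 did not pass the threshold (limma adjusted p = 0.158). Of the stalk proteins, RPLP0 and RPLP1 had log2 fold changes of 0.51 and 0.52 between 5-Fu injection and HS. Of the 15 proteins in the Diamond-Blackfan anaemia list, an inherited failure of red cell production caused by ribosomal protein mutations, 14 were members and 13 were higher after 5-Fu injection, with a median log2 fold change of 0.64 and none past the threshold. The 4 members that are X-linked in most mammals had a median of 0.57, though the row kept for RPL39 was a single block on chromosome 2.

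RPSA, which is also known as a laminin receptor, was at 666, 825 and 548 FPKM in NS, 633, 573 and 592 in HS, 590, 670 and 1236 after drug-loaded MNs and 1000.0, 761 and 903 after 5-Fu injection. The 5-Fu samples lay above the HS samples, with a log2 fold change of 0.56 ± 0.27 (limma adjusted p = 0.211). The RPSA member row held 81.1% to 81.6% of the FPKM of its protein's rows in NS replicates 1 and 2, HS replicate 1 and drug-loaded MNs replicate 3. In all other samples it held 60.9% to 70.0%. RPS6, the phosphorylated substrate of S6 kinase, was at 247, 261 and 245 in NS, 282, 315 and 276 in HS, 255, 258 and 460 after drug-loaded MNs and 439, 237 and 362 after 5-Fu injection. For RPS6 the treated groups overlapped HS, and its log2 fold change between 5-Fu injection and HS was 0.21 ± 0.26 (limma adjusted p = 0.647). Its member row held between 46.6% and 59.1% of the FPKM of its 7 rows.

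The paralogs showed patterns of their own. RPL22L1, which can take the place of RPL22 in the large subunit, was at 104, 82.5 and 68.3 FPKM in NS, 49.2, 42.0 and 67.7 in HS, 86.2, 80.3 and 171 after drug-loaded MNs and 157, 65.6 and 87.0 after 5-Fu injection. In this row HS was below NS and below drug-loaded MNs in all samples. With the FPKM of its 3 rows summed, RPL22L1 was at 188, 151 and 181 in NS and 141, 130 and 158 in HS, which overlap, and the log2 fold change between HS and NS was -0.28, against -0.68 for the member row. It had the largest log2 fold change of all members between drug-loaded MNs and HS, 1.01 ± 0.36 (limma adjusted p = 0.442), and one of 0.88 ± 0.36 between 5-Fu injection and HS (limma adjusted p = 0.149). Summed with its copies these became 0.81 and 0.62. RPL22 itself had log2 fold changes of -0.10 ± 0.26 and 0.36 ± 0.26 in the same comparisons (limma adjusted p = 0.936 and 0.410).

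RPS27L, a relative of RPS27 that is known to be induced by p53, was at 207, 262 and 274 FPKM in NS, 176, 204 and 208 in HS, 199, 201 and 195 after drug-loaded MNs and 205, 274 and 448 after 5-Fu injection. In this row the 3 drug-loaded MNs samples were nearly equal, and all of them were below all 5-Fu samples. The row held 64.9% to 73.9% of the FPKM of its protein's rows after drug-loaded MNs and 70.0% to 76.0% after 5-Fu injection. A single-block copy on chromosome 8 overlapped between the treatments, at 84.2, 66.7 and 104 after drug-loaded MNs and 85.0, 80.8 and 139 after 5-Fu injection. The separation thus holds for the member row only. The log2 fold change of RPS27L was 0.58 ± 0.24 between 5-Fu injection and HS (limma adjusted p = 0.155) and -0.56 ± 0.24 for MN minus 5-Fu injection (limma adjusted p = 0.313). RPS27 had log2 fold changes of 0.79 ± 0.26 and -0.24 ± 0.26 in these comparisons (limma adjusted p = 0.0946 and 0.677).

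RPL3L, the paralog of RPL3 known from skeletal muscle and heart, was at 2.08, 2.07 and 2.90 FPKM in NS, 0.921, 1.25 and 1.10 in HS, 0.296, 1.41 and 0.856 after drug-loaded MNs and 1.25, 1.38 and 0.941 after 5-Fu injection. NS was above every scar sample, whatever its treatment. The log2 fold change between HS and NS was -0.67 ± 0.24 (limma adjusted p = 0.123), while RPL3 had one of 0.01 ± 0.28. The summed FPKM of the 5 skeletal muscle markers in the table, of 6 listed, was 13.2, 10.7 and 74.5 in NS and 5.63 to 20.1 in the scar groups, and MYH1 was close to 0 in every sample. Only NS replicate 3, the sample with the most RPL3L, stood above all scar samples in these markers. Their part in the level of RPL3L was not tested.

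**Figure D3:**
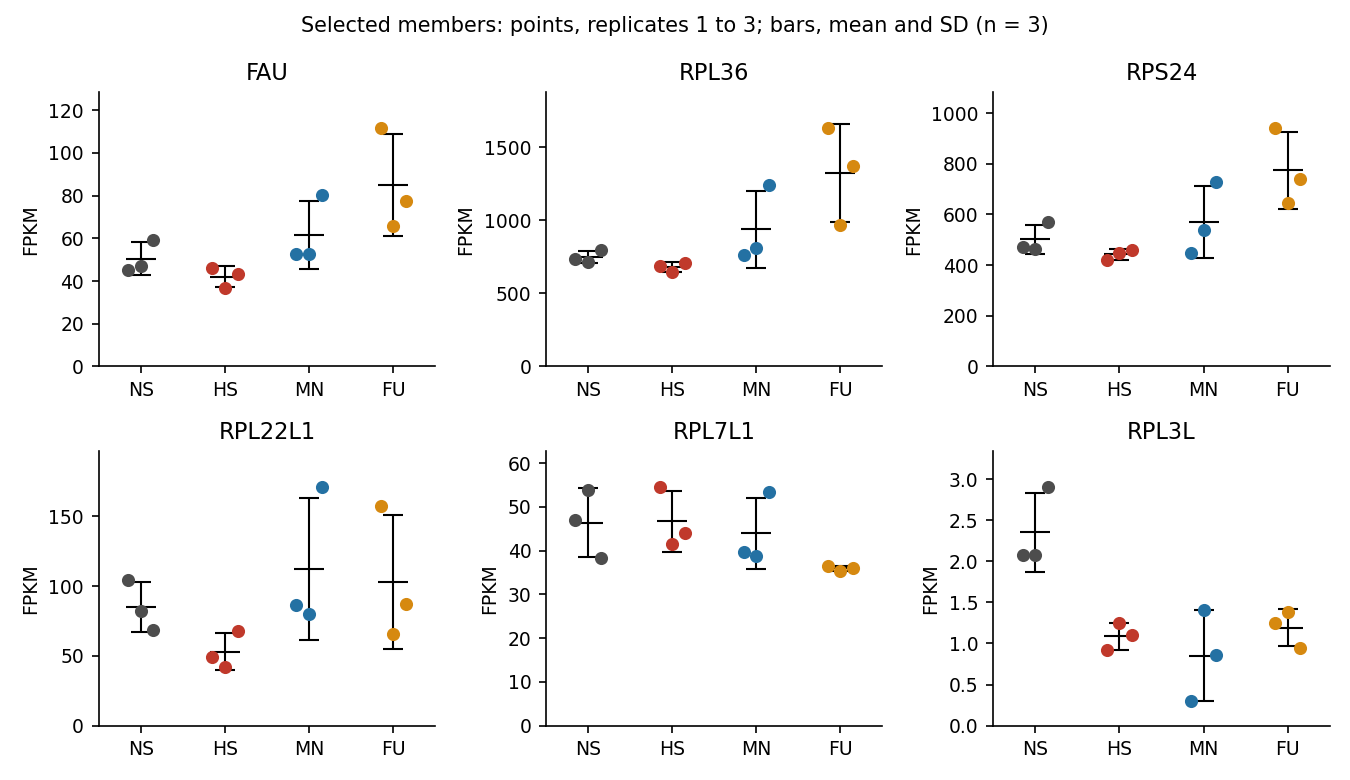
FPKM of 6 members in the 4 groups, with 1 point per sample and the mean and SD of 3 samples. FAU, RPL36 and RPS24 are highest after 5-Fu injection (FU), RPL22L1 is lowest in HS, RPL7L1 is lowest after 5-Fu injection at 35.4 to 36.5, and RPL3L is highest in NS at 2.07 to 2.90.

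Untreated HS and NS differed little in most members. The member median of the log2 fold change was -0.15, with 67 of 80 members negative, against -0.01 over all genes tested. Without NS replicate 3 the member median was -0.05, with 24 members positive. limma called 0 members, where 5.24% of all genes were called higher in HS and 2.21% lower. At an unadjusted p under 0.05, 1 member was higher and 2 were lower (13.2% and 10.2% of all genes), and limma voom on reads gave 0 calls with the same numbers at that level. In 12 members all HS samples were below all NS samples, where 15.3% of all genes showed this, and in 1 member, RPS6, they were above, where 18% of all genes did. This result rests on how samples are scaled. The deposited values are scaled by size factors, and the 4 collagen genes tested were all called higher in HS, with a median log2 fold change of 4.07. When FPKM was rescaled to each sample's total reads, the member median was -0.51, the median of all genes was -0.33, and RPL21, RPL3L and RPS29 were called lower in HS.

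By member row, RPL39, RPL34 and RPL21 had the largest fold changes between HS and NS, and none passed the threshold. RPL34 had a log2 fold change of -0.99 ± 1.21 (limma adjusted p = 0.666) with overlapping groups, and in size-factor-scaled reads on all its rows the log2 difference was -0.24 (SD 0.31 in HS and 0.38 in NS, n = 3). RPL39, which lies in the peptide exit tunnel, was at 683, 711 and 2211 FPKM in NS and at 1919, 1828 and 2515 in HS, so that only NS replicates 1 and 2 were low. Its log2 fold change was 1.01 ± 0.42 (limma adjusted p = 0.171), and 1.57 without NS replicate 3, where it was called (limma adjusted p = 0.0148). With the FPKM of its copies summed it was 0.42 ± 0.28 (limma adjusted p = 0.406), and in size-factor-scaled reads on all its rows, which do not depend on the lengths of the copies, the log2 difference was 0.058 (SD 0.21 in HS and 0.032 in NS, n = 3). RPL21, a large subunit protein, was at 109, 160 and 241 in NS, 87.3, 94.0 and 88.0 in HS, 85.3, 90.0 and 122 after drug-loaded MNs and 161, 101 and 152 after 5-Fu injection. The HS samples were all below the NS samples, and the log2 fold change of -0.84 ± 0.27 had the smallest adjusted p of the members in this comparison (limma adjusted p = 0.0875). Without NS replicate 1 it was -1.12 and was called (limma adjusted p = 0.0413). The RPL21 member row held 66.7% to 78.7% of the FPKM of its protein's rows in NS and 57.0% to 63.1% in HS. The next row of this protein overlapped between the groups, at 28.7 to 35.8 FPKM in NS and 28.1 to 35.6 in HS. The fold change of the member row is thus wider than that of the rows together.

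RPL15, an early-assembling large subunit protein, was at 387, 413 and 625 FPKM in NS, 434, 595 and 625 in HS, 601, 628 and 655 after drug-loaded MNs and 894, 646 and 768 after 5-Fu injection. NS and HS overlapped, and the log2 fold change between them was 0.23 ± 0.22 (limma adjusted p = 0.573). The member row held 70.0% to 73.1% of the FPKM of its protein's rows in NS replicates 1 and 2, HS replicate 1 and drug-loaded MNs replicate 3. In all other samples it held 94.9% to 95.3%, so these levels depend in part on which row held the reads.

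Drug-loaded MNs were also compared with untreated HS. No drug-free patch was among the samples, so the patch and its drug cannot be told apart. The member median of the log2 fold change was 0.33 (interquartile range 0.22 to 0.40), with 72 of 80 members positive, against -0.02 over all genes. limma called 0 members, and 0.00753% of all genes were called higher and 0% lower. At an unadjusted p under 0.05, 3 members were higher and 0 lower, where 4.78% of all genes were higher and 4.12% lower. limma voom on reads also gave 0 calls, with 5 members higher at that level. In 17 members the drug-loaded MNs samples were all above the HS samples, where 8.53% of all genes were, and in 0 members all were below, where 10.3% of all genes were. The difference leaned on 1 library: without drug-loaded MNs replicate 3 the member median was 0.10, and without replicate 1 it was 0.48. It leaned on scaling as well: under quantile normalization the member median was 0.15, with 69 members positive.

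After RPL22L1, the largest positive fold changes by member row belonged to RPS12 and RPS27. RPS12, a small subunit protein, was at 2030, 1808 and 2295 FPKM in HS, 2641, 2610 and 3900 after drug-loaded MNs and 4597, 2548 and 3342 after 5-Fu injection, with 2244, 2421 and 2496 in NS. Both treated groups lay above HS in all samples, and the log2 fold change for drug-loaded MNs was 0.56 ± 0.26 (limma adjusted p = 0.577). RPS27, a zinc finger protein of the small subunit, was at 957, 1059 and 1171 in HS, 1281, 1373 and 2085 after drug-loaded MNs and 2495, 1412 and 1726 after 5-Fu injection, with 1247, 1127 and 1497 in NS. It too was above HS in every treated sample, with a log2 fold change of 0.54 ± 0.26 for drug-loaded MNs (limma adjusted p = 0.586). The RPS27 member row held 60.5% to 70.8% of the FPKM of its protein's rows in HS, 71.3% to 76.4% after drug-loaded MNs and 69.7% to 72.1% after 5-Fu injection. Part of its fold change for drug-loaded MNs thus lies in how FPKM was divided between the rows. Among the most negative fold changes were those of RPL27 (-0.37) and RPL3L (-0.22), and neither passed the threshold.

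The treatments were compared with each other directly, since their comparisons with HS share the same 3 HS samples. The member median was -0.29 for drug-loaded MNs against 5-Fu injection, with 75 of 80 members negative. limma called 0 members and 0% of all genes in either direction. At an unadjusted p under 0.05, 4 members were lower after drug-loaded MNs and 0 higher (6.97% and 8.15% of all genes), and limma voom on reads gave 0 calls and 5 such lower members. By member row, the groups did not overlap in 2 members that were lower, RPS29 and RPS27L, and in 1 that was higher, RPL7L1, where 8.42% and 8.64% of all genes were so placed. The member median was -0.09 without 5-Fu replicate 1 and -0.49 without drug-loaded MNs replicate 3. Under quantile normalization it was -0.08, with 21 members positive.

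RPS29 and RPS21, both small subunit proteins, were among the most negative here. RPS29 was at 1250, 1104 and 1516 FPKM in NS, 1018, 1154 and 892 in HS, 811, 1026 and 1101 after drug-loaded MNs and 1730, 1260 and 1840 after 5-Fu injection. All drug-loaded MNs samples were below all 5-Fu samples and below all NS samples, and the log2 fold change against 5-Fu injection was -0.71 ± 0.22 (limma adjusted p = 0.250). RPS21 was at 400, 339 and 480 in NS, 473, 448 and 400 in HS, 482, 488 and 592 after drug-loaded MNs and 1162, 584 and 665 after 5-Fu injection. Its groups overlapped between the treatments, with a log2 fold change of -0.56 ± 0.25 (limma adjusted p = 0.319). At the other end were RPL34 (1.09 ± 1.21), RPL27 (0.45 ± 0.60) and RPL7L1 (0.27 ± 0.17), with limma adjusted p of 0.688, 0.747 and 0.466.

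Against NS, the member median was 0.51 for 5-Fu injection with 74 members positive, and 0.22 for drug-loaded MNs with 66 positive. limma called 0 members in both, where 0.00753% of all genes were called higher for 5-Fu injection and 0.866% for drug-loaded MNs, and 0% and 0.0978% were called lower. At an unadjusted p under 0.05, 28 members were higher and 1 lower after 5-Fu injection (7.93% and 6.98% of all genes), and 1 was higher and 2 lower after drug-loaded MNs (7.68% and 5.25%). limma voom on reads gave 0 calls in both, with 30 higher and 1 lower for 5-Fu injection and 1 higher and 2 lower for drug-loaded MNs. In 30 members the 5-Fu samples were all above the NS samples and in 2 all below, where 9.6% and 9.16% of all genes were. For drug-loaded MNs these numbers were 4 and 3 members, where 11.5% and 9.11% of all genes were. Without drug-loaded MNs replicate 3 the median for drug-loaded MNs was -0.01, and with FPKM rescaled to total reads it was 0.00 with 40 members on each side. The median for 5-Fu injection fell to 0.081 under quantile normalization, and ran from 0.29 to 0.67 with 1 sample left out. Without NS replicate 3, RPL39 was called higher in both comparisons.

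In several members the share of the protein's reads that fell on the member row differed widely between samples. RPL34, a large subunit protein, had the largest spread after the family median was removed, with an SD of 1.62, and 0.73 once its copies were summed. Its member row at chr20:15537120-15537473 is a single block, while a second row at chr15:40905508-40928089 has gaps. The member row was at 922, 902 and 222 FPKM in NS, 1391, 144 and 117 in HS, 113, 150 and 2819 after drug-loaded MNs and 246, 135 and 149 after 5-Fu injection. The chr15 row was at 146, 138 and 417 in NS, 2.15, 261 and 341 in HS, 342, 400 and 1.59 after drug-loaded MNs and 720, 396 and 444 after 5-Fu injection. The rows were high in opposite samples. In share of the protein's reads, the member row took 50.0% and 50.7% in NS replicates 1 and 2, 97.3% in HS replicate 1 and 99.0% in drug-loaded MNs replicate 3, and 5.11% to 8.09% in the other 8 samples.

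RPL23A and RPL27 divided the samples in the same way. RPL23A is named here after its values were seen. The member row of RPL23A, at chr19:19442381-19445077, took 73.0% to 81.0% of the protein's reads in those 4 samples and 34.8% to 41.2% in the other 8. A single-block copy on chromosome 9 was at 0.163, 0, 0.197 and 0 FPKM in NS replicates 1 and 2, HS replicate 1 and drug-loaded MNs replicate 3, and at 13.8 to 54.9 in the others. The member row of RPL27, at chr19:43677146-43680645, took 96.9% to 98.1% of the reads in the same 4 samples and 36.1% to 79.5% elsewhere, with the lowest shares in drug-loaded MNs replicate 1 and 5-Fu replicates 1 and 3. Its FPKM was 1072, 1034 and 727 in NS and 201, 629 and 1425 after drug-loaded MNs. A single-block copy of RPL27 on chromosome 12 was at 17.3 to 32.0 FPKM in those 4 samples and at 168 to 550 in the rest.

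RPL39 split the samples differently. Its member row, a single block at chr2:1527642-1527797, was at 2379, 2432 and 3577 FPKM after drug-loaded MNs and 4382, 2715 and 3461 after 5-Fu injection, and took 29.8% and 31.4% of the protein's reads in NS replicates 1 and 2 and 81.4% to 96.5% in the other 10 samples. A copy with gaps on the X chromosome was at 700 and 682 FPKM in those NS samples and at 31.7 to 177 in the rest. These patterns did not follow the labelled groups, since HS replicate 1 and drug-loaded MNs replicate 3 stood apart from the other replicates of their own groups. None of the 5-Fu samples was among the 4, and NS replicate 3, HS replicates 2 and 3 and MN replicates 1 and 2 shared the low RPL34 and RPL23A shares of the 5-Fu samples. The labels give 3 rabbits to each group but no rabbit to a sample, and whether the 4 samples have anything else in common was not tested. What sets the division was not tested.

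**Figure D4:**
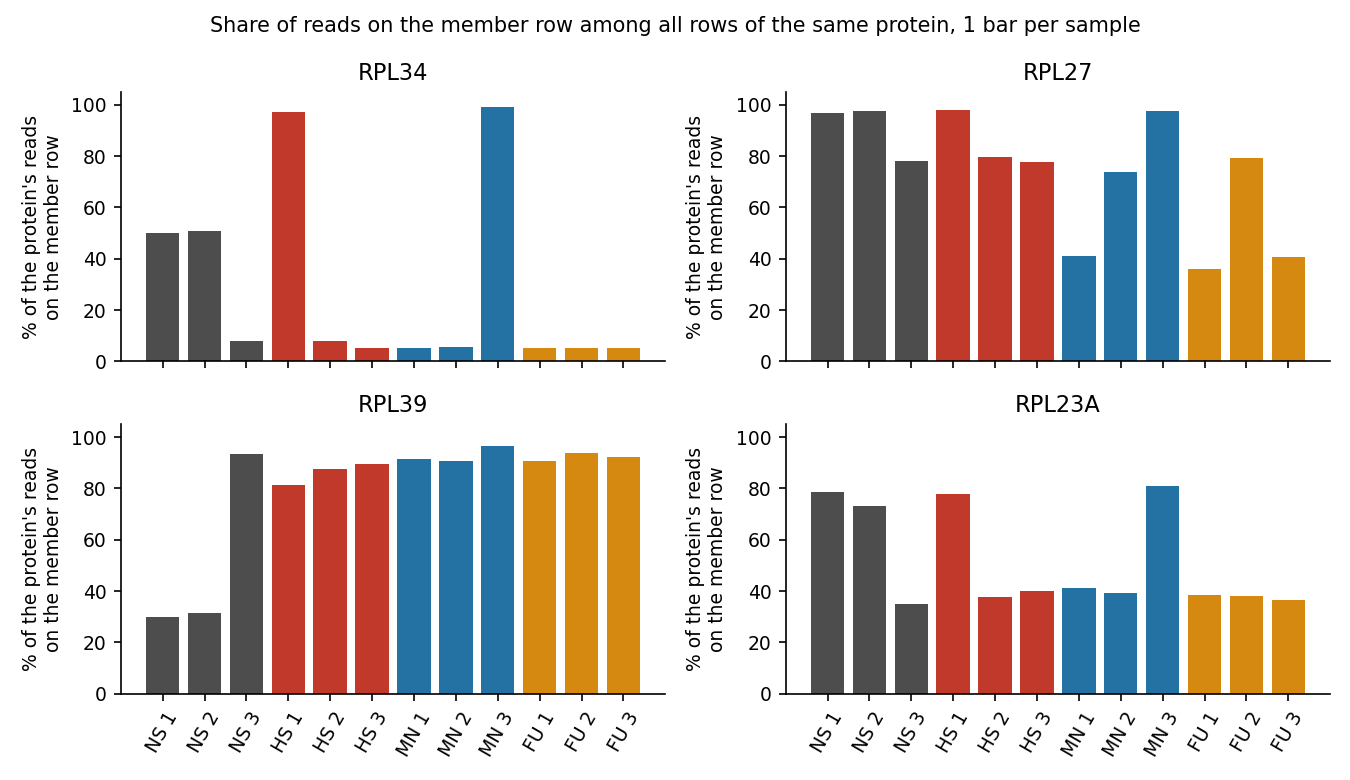
Share of the reads of RPL34, RPL27, RPL39 and RPL23A that fell on the member row, in percent of the reads on all rows of the same protein, 1 bar per sample coloured by group. NS replicates 1 and 2, HS replicate 1 and drug-loaded MNs (MN) replicate 3 are highest for RPL34, RPL27 and RPL23A, and NS replicates 1 and 2 are lowest for RPL39.

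Other genes of the translation pathway were taken from lists by symbol, beside the members. Of 22 other TOP mRNAs in the list, 8 carried a symbol and were tested, and their median log2 fold change between 5-Fu injection and HS was 0.36 with 7 positive and 0 called. The row described as elongation factor 1-alpha 1, listed as RABEFLA2, had a log2 fold change of 0.36 ± 0.32 (limma adjusted p = 0.506). The mitochondrial ribosome, which is built from other proteins, had a median of 0.30 over 45 genes with 42 positive and 0 called, and short nuclear genes of oxidative phosphorylation had 0.25 over 30 genes with 2 called higher. Translation initiation factors (0.12 over 19 genes), ribosome biogenesis factors (0.17 over 24), rRNA transcription factors (0.05 over 6) and regulators of TOP mRNAs (-0.07 over 10) had smaller medians, and none of their genes was called. Among the regulators MTOR had a log2 fold change of 0.02 (limma adjusted p = 0.940), LARP1 of -0.16 (0.681) and MYC of 0.70 (0.199). The 2847 tested genes of at most 1000 bases that are not ribosomal protein rows had a median of 0.15, so short genes as a class were also slightly higher, with the members further above 0.

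Between drug-loaded MNs and HS the same lists had medians of 0.19 (other TOP mRNAs), 0.00 (mitochondrial ribosome), -0.01 (oxidative phosphorylation), -0.14 (initiation), -0.04 (biogenesis) and -0.05 (regulators). Both treatments share the HS samples as their reference.

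The tissue label was checked against cell type markers, and some of these were highest in the libraries in which the members were highest. Keratinocyte, fibroblast and endothelial markers were above 0 in every sample. Endothelial markers (5 of 5) summed to 382 to 412 after 5-Fu injection, above every other sample (329 to 364 in HS, 269 to 334 in NS and 294 to 371 after drug-loaded MNs). As a mean of log2(FPKM + 1) they overlapped, at 5.63 to 5.95 after 5-Fu injection and 5.44 to 5.91 in HS. Their median log2 fold change between these groups was 0.03, with 4 of 5 positive. Myeloid markers (6 of 6) summed to 435, 551 and 256 after 5-Fu injection, 234 to 286 in HS, 140 to 529 in NS and 196 to 233 after drug-loaded MNs. T cell markers (CD2 and LCK, 2 of 6 listed) summed to 68.2 FPKM in 5-Fu replicate 1, against 8.49 and 11.1 in the other 5-Fu samples, 1.79 to 3.63 in HS, 4.64 to 15.6 in NS and 4.97 to 6.21 after drug-loaded MNs. B cell markers (4 of 5 listed) summed to 31.5 in that library and to at most 4.19 in all others, with MS4A1 at 0 in some samples. Keratinocyte markers (4 of 6) summed to 8424 in drug-loaded MNs replicate 3, the highest sample, to 3580 and 3833 in MN replicates 1 and 2, of which replicate 1 had low members, and to 1266 to 1862 in HS, 2093 to 3622 in NS and 2701 to 5284 after 5-Fu injection. Cartilage markers (6 of 6) summed to 5116 in 5-Fu replicate 1 and to 439 and 829 in the other 5-Fu samples, to 4491 in drug-loaded MNs replicate 3 and to 792 and 2092 in replicates 1 and 2, and to 1439 to 3004 in NS. They were also high in HS replicate 3, at 4461, where the members were low, against 455 and 874 in the other HS samples. Fibroblast markers (5 of 6) were highest in HS, where the members were low, at 30093 to 39738. They summed to 15049 to 20633 after drug-loaded MNs and 3775 to 22187 after 5-Fu injection. They were lowest in NS, at 2089 to 2726, though the member median was also low in NS replicates 1 and 2, at -0.19 and -0.26. Genes of the mitochondrial genome took 3.20% to 3.83% of reads in HS, 4.73% to 6.66% in NS, 4.34% to 5.41% after drug-loaded MNs and 5.50% to 10.7% after 5-Fu injection. NS thus overlapped 5-Fu injection, and 5-Fu replicate 1, with the highest members, had the lowest share of its group. The part of these markers in the level of the members was not tested. In bulk tissue, fewer cells of a type and less RNA per cell cannot be told apart.

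**Figure D5:**
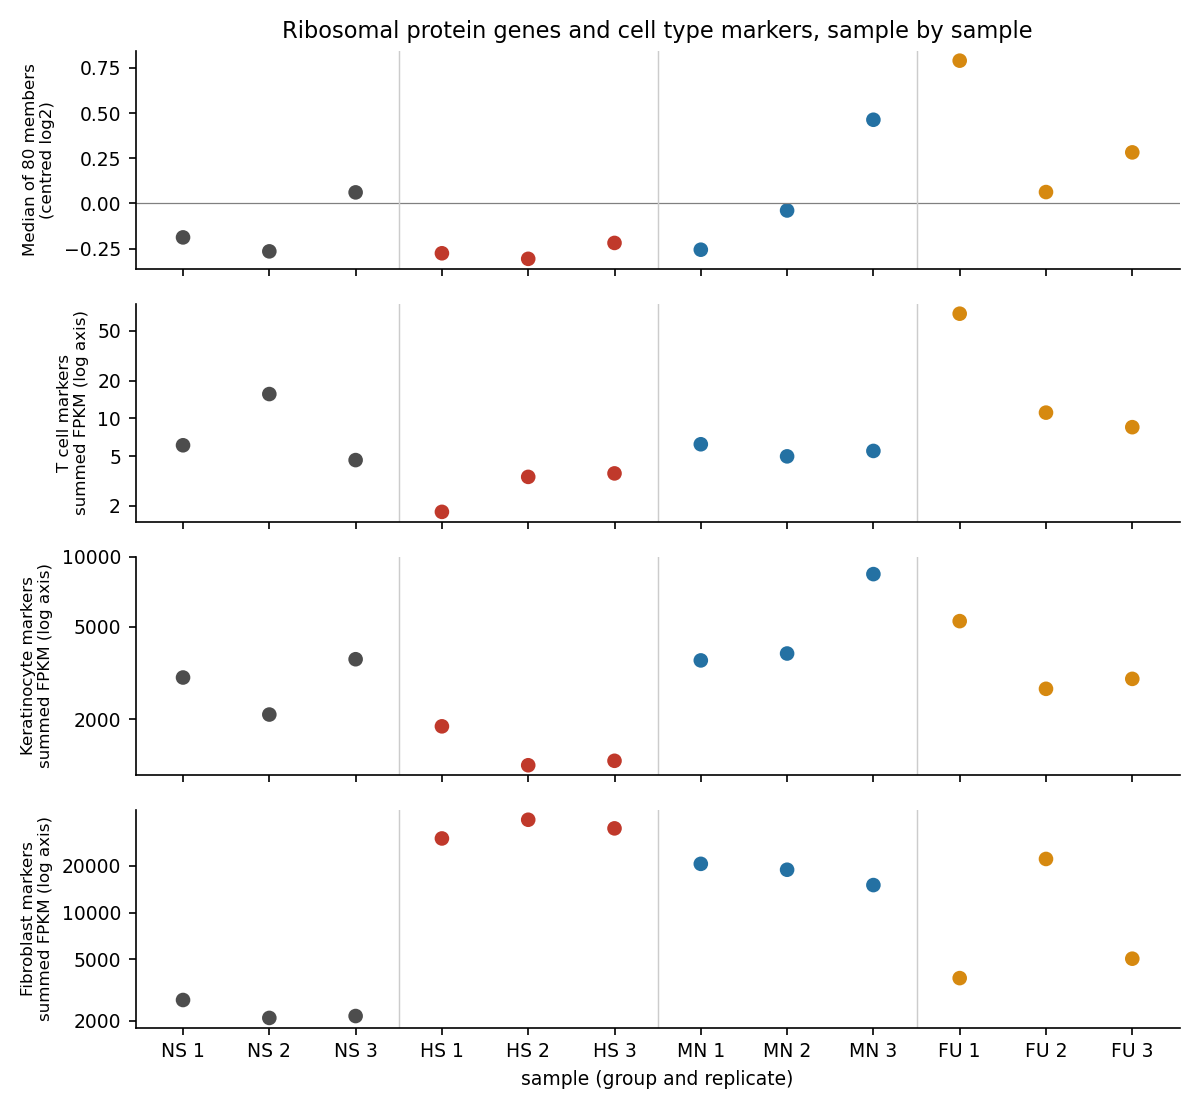
Median of the 80 members per sample (centred log2 units) above the summed FPKM of T cell, keratinocyte and fibroblast markers on log axes, 1 point per sample. 5-Fu (FU) replicate 1 is highest for the members (0.79) and for T cell markers (68.2), drug-loaded MNs (MN) replicate 3 is highest for keratinocyte markers (8424), and the HS samples are highest for fibroblast markers.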

How the data were processed

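The authors prepared mRNA libraries from total RNA of full thickness ear tissue and deposited 1 table of FPKM values for 29587 genes and 12 samples. The aligner, genome build, annotation and strand setting behind this table are not given in the sources used here, and coordinates are those of the table. FPKM multiplied by gene length gave whole multiples of 1 step per sample within 0.05 of a read in 100% of cases, so reads were counted back. The implied library sizes follow size factors of the median-of-ratios kind. Intervals from counting cover counting error only.

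Sample columns were assigned from the labels. Members were found by name and kept as the row of highest mean per protein. limma 3.58.1 in R 4.3.3 was fitted to log2(FPKM + 1) of 13287 genes whose mean FPKM reached 1. A single model held the 4 groups, with a trend in the empirical Bayes step. P-values of each of the 6 comparisons were adjusted over all genes by Benjamini-Hochberg, with a threshold of 0.05. DESeq2, with which the study tested counts, was not used here. P-values rest on the spread between the 3 samples of a group, pooled over the 4 groups and moderated by the empirical Bayes step. The groups that are not compared therefore also enter each p-value of this model. Each group held 3 rabbits, and the labels do not tie samples to rabbits. Reads summed over copies and divided by size factors were added after seeing the data. The fit was also run on simulated data, and no result of that run is used here. Alternatives were a smaller pseudocount (0.1), all genes kept without the low-value filter, a filter at a mean FPKM of 5, FPKM rescaled to total reads, quantile normalization, only the groups compared, no trend, limma voom on reads, a replicate block, copies summed, an added fold change threshold of 1 on the log2 scale, and each sample left out. Members, lists and tests were chosen with earlier results of these data known. Per-sample values are given for the 3 members of highest and lowest level, the 3 with the largest fold change in each direction in 4 comparisons, and a fixed set of named proteins. Other genes were matched by symbol only. Some members are not reported here by name. Protein and promoter sequences were not used here. Figures were drawn with matplotlib 3.10.9.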

Additional observations from a re-analysis of the deposited data

How the results depend on the processing

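Under the other settings, each sample kept, the count for 5-Fu injection against HS, the only comparison with calls, moved by over 1.5 times in 7 of 11 settings. In the other comparisons counts of 0 say little about stability. Of the member medians, 57 of 60 moved by less than the pooled SD of the family median between replicates, 0.28. Within that limit, quantile normalization still took the median for drug-loaded MNs from 0.33 to 0.15 against HS, from -0.29 to -0.080 against 5-Fu injection and from 0.22 to 0.016 against NS, and rescaling to total reads took the last to 0.0018. For 5-Fu injection against HS the count of 2 became 0 with no filter on low values, with only the groups compared and with a fold change threshold of 1 added, 1 with quantile normalization and 1 with copies summed, and 9 with FPKM rescaled to total reads. The median of 0.64 became 0.22 with quantile normalization, and that for 5-Fu injection against NS went from 0.51 to 0.081. For HS against NS, rescaling to total reads raised the count from 0 to 3 and moved the median from -0.15 to -0.51. The cause was not tested, except that no filter means more genes tested and only the groups compared means fewer samples. FAU passed in 13 of 23 fits (limma adjusted p 0.0176 to 0.117) and RPL36 in 8 (0.0151 to 0.139).

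Leaving out 1 sample at a time gave 0 to 18 called members for 5-Fu injection against HS, 0 to 1 for HS against NS, 0 to 1 for drug-loaded MNs against NS and 0 to 1 for 5-Fu injection against NS. Medians ranged from 0.45 to 0.80, -0.21 to -0.05, -0.01 to 0.36 and 0.29 to 0.67 in these comparisons, from 0.10 to 0.48 for drug-loaded MNs against HS and from -0.49 to -0.09 for drug-loaded MNs against 5-Fu injection.

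The labels number the replicates 1 to 3 in each group, but the groups hold different rabbits, and the correlation of deviations between same-numbered samples ran from -0.27 to 0.44, so the numbers do not pair samples. With the number as a replicate block, the count for 5-Fu injection against HS was 0 and the other counts stayed 0.

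With 3 samples a group, a member's log2 fold change carried a median standard error of 0.26, so shifts of the size seen after drug-loaded MNs were not detectable gene by gene. Reads were not limiting for most members. RPL3L rests on few reads.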
